A study of Mus musculus with 2 samples.

Results

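Titin, the giant elastic protein of the sarcomere, is encoded by Ttn, and RBM20, a splicing factor that shapes the titin message, is encoded by Rbm20. Both genes were taken by symbol with every annotated transcript: 25 transcripts of Ttn and 3 of Rbm20, which are 2 of 55536 annotated genes and 28 of 141862 transcripts. Total RNA with ribosomal RNA reduced was sequenced from the hearts of B6CASTF1/J males at the age of 2 months, 1 library a heart, from 300 ng of RNA. B6CASTF1/J mice carry 1 set of chromosomes from a B6 parent and 1 from a CAST parent, and the values here do not separate the alleles. The mice came from The Jackson Laboratory, and the labels name no treatment, mutation or other tissue. The 2 libraries are biological replicates of 1 group and are treated as 2 mice. Their donor entries are the same in the labels, where males and tissue samples have separate numbers. With 1 group there is no contrast between conditions and no p-value; values are given in replicate 1 and replicate 2, and errors are the SD over n = 2 mice.

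Titin spans from the Z-disc to the M-band of the sarcomere. Its A-band part binds the thick filament, and its I-band part works as a molecular spring made of immunoglobulin domains, the N2B and N2A elements and the PEVK segment, which is rich in proline, glutamate, valine and lysine. The stiff cardiac form, N2B, lacks most of the I-band exons; the longer and more compliant N2BA forms keep the N2B exon together with the N2A element and more of the PEVK segment; novex-3 ends early in the I-band and has no A-band. RBM20 binds the titin pre-mRNA and promotes skipping of I-band exons, and loss of its function in humans, rats and mice gives longer titin. Its arginine and serine rich region is a hot spot of variants in inherited dilated cardiomyopathy.

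Gene totals were 38963569 expected counts in replicate 1 and 44321172 in replicate 2. All 8 cardiomyocyte markers, among them Myh6, Tnnt2 and Actc1, reached 1 TPM, a level corrected for transcript length and library size, in both mice, and their summed level was 28578 TPM in replicate 1 and 31313 TPM in replicate 2. Over all genes, 21.5% reached 1 TPM in both mice. Of 10 skeletal muscle markers 2 did, Neb and Tnni2. The summed level of these 10 markers was 5.62 TPM in replicate 1 and 7.24 TPM in replicate 2, with Myh2 and Myh4, myosins of fast skeletal fibres, listed at 0. All 10 markers of endothelium, fibroblasts, mural cells and leukocytes were detected, with a sum of 408 TPM and 452 TPM. In whole tissue, fewer cells of a type and less RNA per cell cannot be told apart.

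The forms of titin are told apart at a few exon junctions. Exons were numbered 5′ to 3′ on Ttn-203, the annotated transcript with all 347 exons. Each junction below has the last 15 bases of the upstream exon in lower case and the first 15 bases of the downstream exon in capitals (mm10, chromosome 2, minus strand, from the GENCODE M21 transcripts). The lines show, in order, the inclusion and the skipping of exon 11 in the Z-disc part, the 3 ways on from exon 45 (to the N2B exon 46, past it to exon 47, or into the last exon of novex-3), and the 2 ways on from exon 47 (the N2B jump to exon 202, or on to exon 48). They end with junctions in the spring of 2 partial models, Ttn-218 and Ttn-219, which skip exons that Ttn-203 holds.
Ttn exon 10 to exon 11: ataactcaagaaacaATAAGACAGGAAACT
Ttn exon 10 to exon 12: ataactcaagaaacaATGATGAAGGAAACT
Ttn exon 45 to exon 46: aaatggagatgaaagAAATTGCTAGCCTTC
Ttn exon 45 to exon 47: aaatggagatgaaagCTGCCCCTGTGATCA
Ttn exon 45 to the novex-3 exon: aaatggagatgaaagAAGAACTCTTTGAGG
Ttn exon 47 to exon 202: cactaactgtgacagTGCCTACAGCTGAAA
Ttn exon 47 to exon 48: cactaactgtgacagAGGCGTATCCACCAA
Ttn exon 113 to exon 118: taccacctcccaaagTCCCTGAACCACCTA
Ttn exon 171 to exon 202: ttccacctcccaaagTGCCTACAGCTGAAA
Ttn exon 113 to exon 120: taccacctcccaaagTCCCAGAGGCTCCAA
Ttn exon 120 to exon 202: cccctccagctaaagTGCCTACAGCTGAAA

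Exons 118 (chr2:76859914-76859997) and 120 (chr2:76857904-76857987) are shown whole because Ttn-218 holds the first and Ttn-219 the second; capitals mark codons for proline, glutamate, valine or lysine. Each is 84 bases, and such codons were 25 of 28 in exon 118 and 22 of 28 in exon 120.
Ttn exon 118: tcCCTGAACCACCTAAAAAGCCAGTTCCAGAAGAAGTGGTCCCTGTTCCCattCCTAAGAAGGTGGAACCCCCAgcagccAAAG
Ttn exon 120: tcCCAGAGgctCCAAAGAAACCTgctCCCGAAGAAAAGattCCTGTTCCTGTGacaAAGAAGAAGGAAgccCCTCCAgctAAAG

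The Rbm20 models differ at the first exon and after exon 11. Exons were numbered on Rbm20-203, the full-length coding transcript with 14 exons. The junctions (chromosome 19, plus strand) are written in the same way, and the 46-base exon that Rbm20-201 inserts between exons 11 and 12 (chr19:53852354-53852399) is shown whole.
Rbm20 exon 1 to exon 2: ccagatcatccaaaaTGCTGCCAAGCTCCT
Rbm20 alternative first exon to exon 2: gtctgtttctgaaagTGCTGCCAAGCTCCT
Rbm20 exon 11 to exon 12: gccaggcttgccgagAAAACCCCAGGTACA
Rbm20 exon 11 to the 46-base exon: gccaggcttgccgagGGTCTGATAGTGGAG
Rbm20 46-base exon: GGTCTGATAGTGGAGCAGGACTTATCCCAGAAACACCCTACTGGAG
The arginine and serine rich stretch lies in exon 9. The 30 codons of exon 9 richest in arginine and serine, codons 630 to 659 (chr19:53843224-53843313), hold 14 such codons, shown in capitals; over all codons of Rbm20-203 they were 14.7%.
Rbm20 arginine and serine rich stretch: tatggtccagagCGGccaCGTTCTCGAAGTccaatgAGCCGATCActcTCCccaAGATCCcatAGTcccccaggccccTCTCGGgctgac

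Ttn (ENSMUSG00000051747.14; mm10 chr2:76703980-76982547, minus strand) had 1235.6 TPM in replicate 1 and 1184.0 TPM in replicate 2, a mean of 1209.8 ± 36.4 TPM. It stood at rank 32 of 22015 nuclear protein-coding genes by TPM. By expected counts, which grow with the length of the message, it stood first among them, with 1332276 and 1400102 counts, and at rank 4 over all genes. These counts were 5.43 ± 0.397% of nuclear protein-coding counts, whereas Ttn held 0.310 ± 0.0136% of nuclear protein-coding TPM. The length behind the gene TPM was 34302 ± 832 bases, an average over the annotated transcripts weighted by their levels, so the TPM of Ttn depends on how reads were divided among long and short models.

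The 3 protein-coding genes next above Ttn in mean TPM were Tpt1, Cox7a1 and Ndufa4, at 1230.4, 1224.7 and 1221.8 TPM. Those next below were Cox8b, Ldhb and Uqcrq, at 1193.0, 1189.8 and 1087.7 TPM. Of the 6, 4 (Cox7a1, Ndufa4, Cox8b and Uqcrq) encode subunits of the respiratory chain. The differences between Ttn and the 5 nearest were within the SD of Ttn, and that to Uqcrq was not.

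Rbm20 (ENSMUSG00000043639.15; mm10 chr19:53677306-53867080, plus strand) had 83.6 TPM in replicate 1 and 88.6 TPM in replicate 2, a mean of 86.1 ± 3.56 TPM. It stood at rank 657 of the nuclear protein-coding genes by TPM and at rank 339 by expected counts, of which it had 9238 and 10889. Its neighbours in level were Tma7, Cacna1c and Psmb6 above, and Pgm1, Pafah1b1 and Gfm1 below, all between 85.6 and 86.3 TPM and within the SD of Rbm20. Cacna1c, which encodes the pore of the cardiac L-type calcium channel, is itself a reported RBM20 target.

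The Ttn level was 14.8 times that of Rbm20 in replicate 1 and 13.4 times in replicate 2, per length. The mean ratio was 14.1 ± 1.01, and 12.0 ± 1.53 in the transcript table made directly from reads. In expected counts the ratio was 136 ± 11.1, since the titin message is much longer.

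The hearts could be compared only as replicate 1 over replicate 2, with 1 library each. After TMM scaling, Ttn counts were 1.12-fold (counting interval 1.116 to 1.121) and Rbm20 counts 0.997-fold (0.970 to 1.03). Neither reached a 1.5-fold difference, which 2.08% of 12453 genes with a mean of at least 50 counts did. The common biological coefficient of variation, over the 15170 genes left after a filter on counts, was 6.63%. It is a spread of single hearts, and a ratio of 2 hearts spreads more widely, so the Ttn fold cannot be set directly against it. Whether the Ttn difference exceeds the general spread between the hearts was not tested. Scaled to the spike-in RNAs, the Ttn ratio was 0.993, on the other side of 1, and the Rbm20 ratio 0.885.

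Titin was represented chiefly by the N2B transcript among the annotated transcripts that reach the A-band. Ttn-201 (81843 bases, 192 exons, coding sequence 80658 bases) holds exons 1 to 10, 12 to 47 and 202 to 347, and so skips exon 11 and the whole block of exons 48 to 201. It had 460.7 TPM in replicate 1 and 425.3 TPM in replicate 2, and was the highest Ttn transcript in both mice and both tables. One transcript was highest in this sense in 67.1% of 10065 nuclear protein-coding genes with 2 or more transcripts. Its share of Ttn TPM was 36.6 ± 0.965%, against a median of 66.1% for the highest transcript of those 10065 genes. In expected counts Ttn-201 held 87.5 ± 0.177% of Ttn.

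Only 4 of the 25 transcripts reach the A-band: Ttn-201, Ttn-203, Ttn-204 and Ttn-205. Together they had 472.1 TPM in replicate 1 and 434.5 TPM in replicate 2. Ttn-201 was 97.7 ± 0.222% of that sum from alignments and 95.1 ± 0.441% from reads. These shares cover annotated forms only. Partial I-band models, given below, have junctions that none of the 4 holds. A-band reads of any message with such junctions could be assigned only to these 4, so the share of N2B among all A-band messages was not measured.

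The 3 long forms were far below N2B. Ttn-203 (106824 bases) is the one annotated full-length transcript that keeps both the N2B exon 46 and the whole I-band block; it was listed at 0.12 and 0 TPM in the alignment table and at 4.50 and 3.29 TPM in the table from reads. Ttn-204 (100404 bases, 312 exons), which lacks exon 46 as the skeletal N2A form does, had 11.3 and 9.13 TPM from alignments and 21.6 and 17.9 TPM from reads. Ttn-205 has the same coding length as Ttn-204, 100401 bases; it was listed at 0 in both mice from alignments, where its posterior mean was 0.78 and 0.34 TPM, and at 0 and 0.0186 TPM from reads. The authors' deposited interval around that posterior mean ran between 0.306 and 1.20 TPM in replicate 1 and between 0.0428 and 0.667 TPM in replicate 2. Together these long forms held 0.847 ± 0.107% of Ttn TPM from alignments and 2.09 ± 0.235% from reads, so the 2 tables put the class more than their replicate spread apart. Few sequences are found in only 1 of these transcripts. Only 27 of 81813 distinct 31-base words of Ttn-201, 34 of 100213 of Ttn-204 and 541 of 106314 of Ttn-203 were found in no other annotated transcript. Ttn-201 and Ttn-204 each have 1 junction of their own, but longer stretches also tell these 2 transcripts apart. Exon 46 (2646 bases) is in Ttn-201 and not in Ttn-204. Exons 48 to 73 (7590 bases) are in Ttn-204, whole or in part, and not in Ttn-201. Ttn-203 holds both stretches, so the levels still depend on how shared reads were assigned.

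Novex-3, Ttn-202 (16891 bases), ends in an exon of 6520 bases (chr2:76913944-76920463) that no other Ttn transcript holds. It had 78.9 TPM in replicate 1 and 77.5 TPM in replicate 2 from alignments, and 45.9 and 44.7 TPM from reads. Relative to Ttn-201 it was 0.177 ± 0.00774 from alignments and 0.0989 ± 0.00312 from reads, so both tables put novex-3 below N2B in each mouse but differ in its size by more than the spread between mice. Its share of Ttn TPM was 6.46 ± 0.113% and 4.01 ± 0.0561% in the 2 tables.

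**Figure D1:**
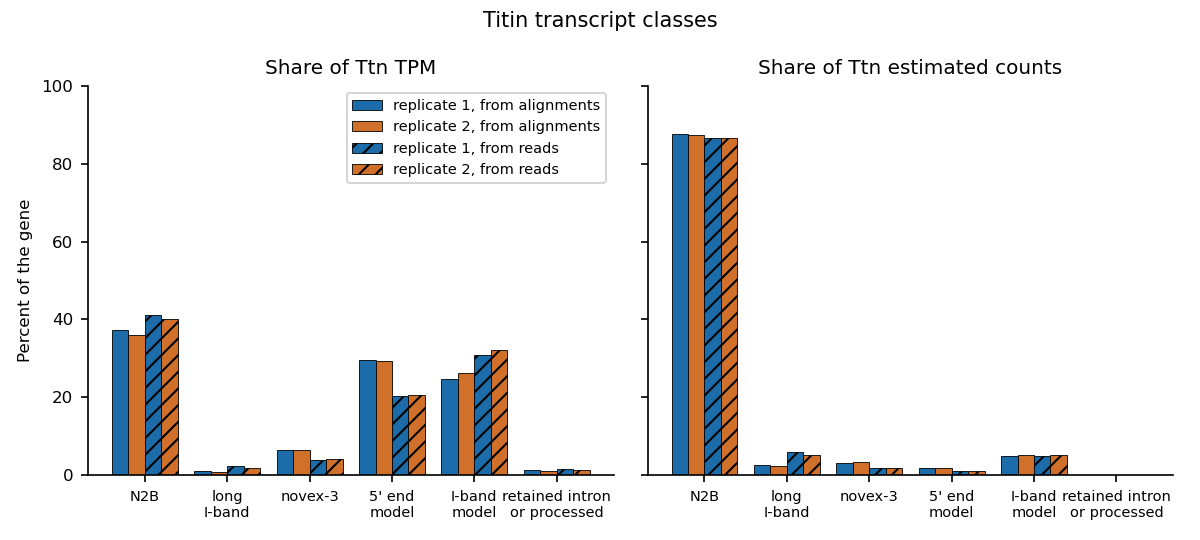
Percent of Ttn on each transcript class for each replicate and table, by TPM (left) and by estimated counts (right). Bars are single libraries. N2B holds 36.6% of TPM and 87.5% of counts from alignments. The 5′ end and I-band models, all shorter than the transcripts that reach the A-band, hold more of TPM than of counts.

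Partial transcript models took the rest of the Ttn TPM. Ttn-215, a 2159-base model of the 5′ end that stops within exon 12, had 365.0 and 347.9 TPM from alignments and 234.1 and 225.9 TPM from reads. It held 29.5 ± 0.112% of Ttn TPM but 1.78 ± 0.0365% of its counts. None of its 31-base words and none of its junctions is its own, so its level depends on how shared reads were assigned. The 15 I-band models together held 25.4 ± 1.20% of Ttn TPM from alignments and 31.6 ± 0.877% from reads.

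The I-band models that were well expressed skip much of the spring of Ttn-203 but hold spring exons that Ttn-201 lacks. Ttn-218 (10229 bases, with both ends marked as not found) runs from exon 74 through 113, then holds exons 118, 141, 142 and 171 before exon 202. It had 181.5 and 179.5 TPM from alignments and 194.4 and 196.3 TPM from reads, which is 0.408 ± 0.0198 of Ttn-201 from alignments and 0.427 ± 0.0241 from reads. Ttn-219 (1633 bases) runs from exon 105 to 113 and holds exon 120 alone before exon 202; it had 75.3 and 80.8 TPM from alignments, and 63.7 and 64.7 TPM from reads. Ttn-222, with exons 114, 120, 125 to 127, 141 and 142, had 27.4 and 30.1 TPM, and Ttn-209, with more of the block, had 14.8 and 17.7 TPM, both from alignments. Each of these 4 models has at least 1 junction of its own, such as exon 113 to 118 for Ttn-218 and exon 120 to 202 for Ttn-219. These junctions are in none of the 4 annotated transcripts that reach the A-band, so none of those transcripts holds any of these models whole. The models stop short of exon 46 on one side and of the A-band on the other. Which full-length messages they belong to cannot be told from these values.

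PEVK exons were counted by codon. Of the exons of Ttn-203, 79 had at least 60% of their codons for proline, glutamate, valine or lysine, the first at exon 110 and the last at exon 205. Ttn-204 overlaps 55 of these 79 exons, Ttn-218 11, Ttn-219 8 and Ttn-201 4.

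**Figure D2:**
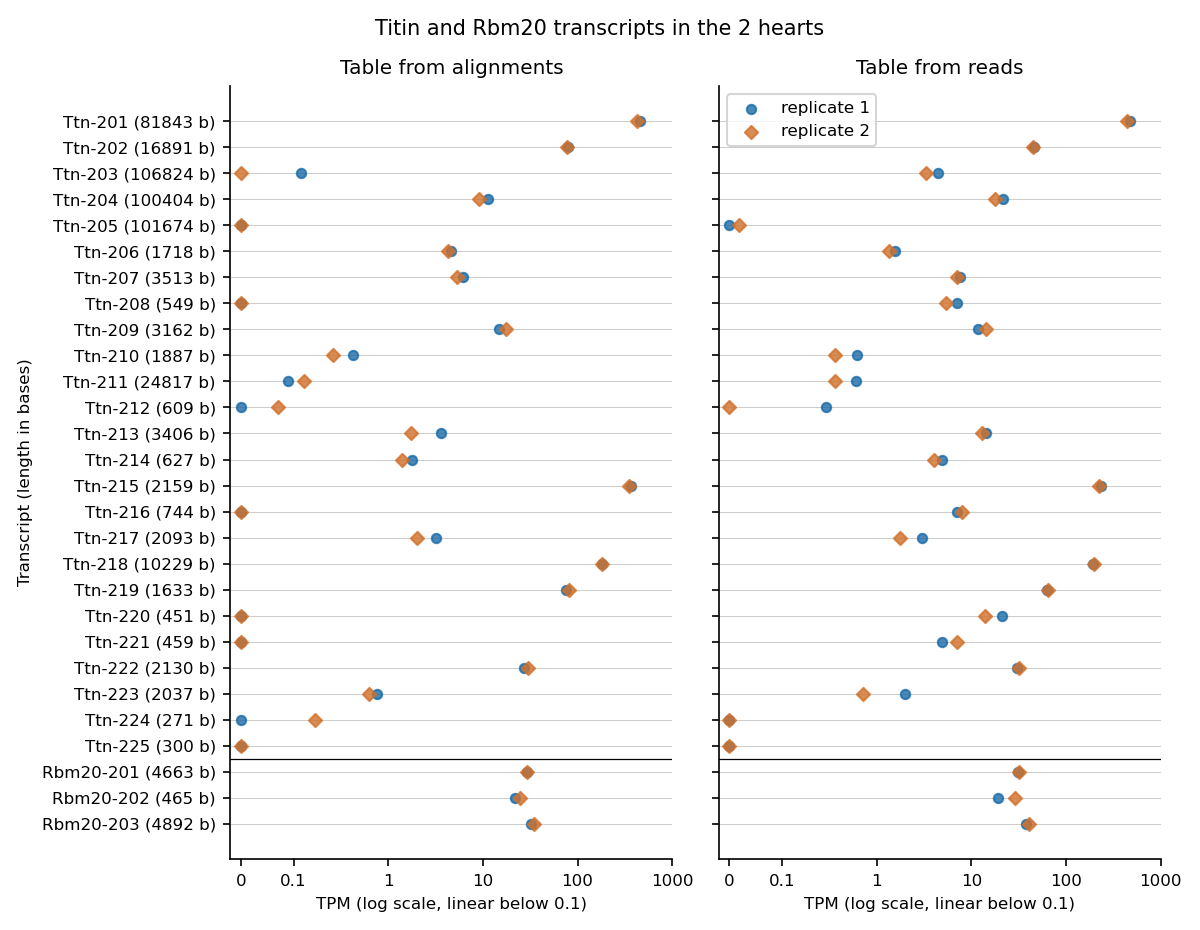
TPM of each Ttn and Rbm20 transcript in replicate 1 (circles) and replicate 2 (diamonds), from alignments (left) and from reads (right), on a log axis that is linear below 0.1 TPM. Ttn-201, Ttn-215 and Ttn-218 lead for Ttn in both tables, and the 3 Rbm20 transcripts lie between 19.2 and 40.2 TPM.

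Over all transcripts of Ttn, 15 of 25 reached 0.1 TPM in both mice in the alignment table, against 31.3% of 141862 transcripts, and 21 did in the table from reads, against 33.1% of 141767. All 3 Rbm20 transcripts did in both tables. Ttn-205, Ttn-208, Ttn-216, Ttn-220, Ttn-221 and Ttn-225 were listed at 0 in both mice from alignments. Of these, Ttn-220 had 21.2 and 13.8 TPM from reads, Ttn-216 7.05 and 7.89 TPM, Ttn-208 7.02 and 5.41 TPM, and Ttn-221 4.89 and 7.06 TPM. Those 4 models are between 451 and 744 bases long and have no 31-base word of their own. Between the tables, 8 of 19 Ttn transcripts and 0 of 3 Rbm20 transcripts differed 2-fold or more, against 43.5% of 30183 transcripts. Of the 8, only Ttn-206 was higher from alignments, while Ttn-203, Ttn-208, Ttn-213, Ttn-214, Ttn-216, Ttn-220 and Ttn-221 were higher from reads. Between the mice, 3 of 14 Ttn transcripts (Ttn-203, Ttn-213 and Ttn-217) and 0 of 3 of Rbm20 differed 1.5-fold or more from alignments, against 14.9% of 22461 transcripts with a mean of at least 50 counts.

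The remaining Ttn transcripts were low. The retained-intron models Ttn-206, Ttn-207 and Ttn-217 had 4.65, 6.16 and 3.17 TPM in replicate 1 and 4.27, 5.34 and 2.01 TPM in replicate 2. The processed model Ttn-214 had 1.79 and 1.40 TPM, and Ttn-213 had 3.62 and 1.76 TPM. Ttn-210, Ttn-211, Ttn-212, Ttn-223 and Ttn-224 stayed below 1 TPM in both mice. All values in these sentences are from alignments.

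Titin exons were then set on one scale, as the summed TPM of all transcripts that hold each exon. This sum is derived from the annotation and the transcript levels and is not read coverage. Exon 309, the largest exon (17106 bases, in the A-band), stood at 472.1 TPM in replicate 1 and 434.5 TPM in replicate 2, and served as the standard. The N2B exon 46 (2646 bases) was at 97.8 ± 0.204% of exon 309 from alignments and 95.9% from reads. The median of exons 48 to 73 was 2.28 ± 0.214% of exon 309 from alignments and 4.99% from reads. That of exons 75 to 98 was 42.2 ± 1.81% and 45.6%, and that of exons 106 to 113 was 70.2 ± 4.88% and 71.3%.

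Within exons 114 to 201, only exons 118, 120, 141, 142 and 171 exceeded 100 TPM in both mice. Exons 141 and 142 each stood at 236.3 and 237.4 TPM, exon 118 at 211.4 and 208.2 TPM, exon 171 at 197.6 and 198.3 TPM and exon 120 at 133.7 and 140.5 TPM. The median over exons 114 to 201 was 11.5 and 9.26 TPM. In 12 of these 88 exons, at least 50% of the 31-base words occur more than once in Ttn-203 or also in another gene, so reads there can have several origins. Exons 202 to 207, where the spring models join, stood at 772.2 and 743.6 TPM, above exon 309 in both mice.

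**Figure D3:**
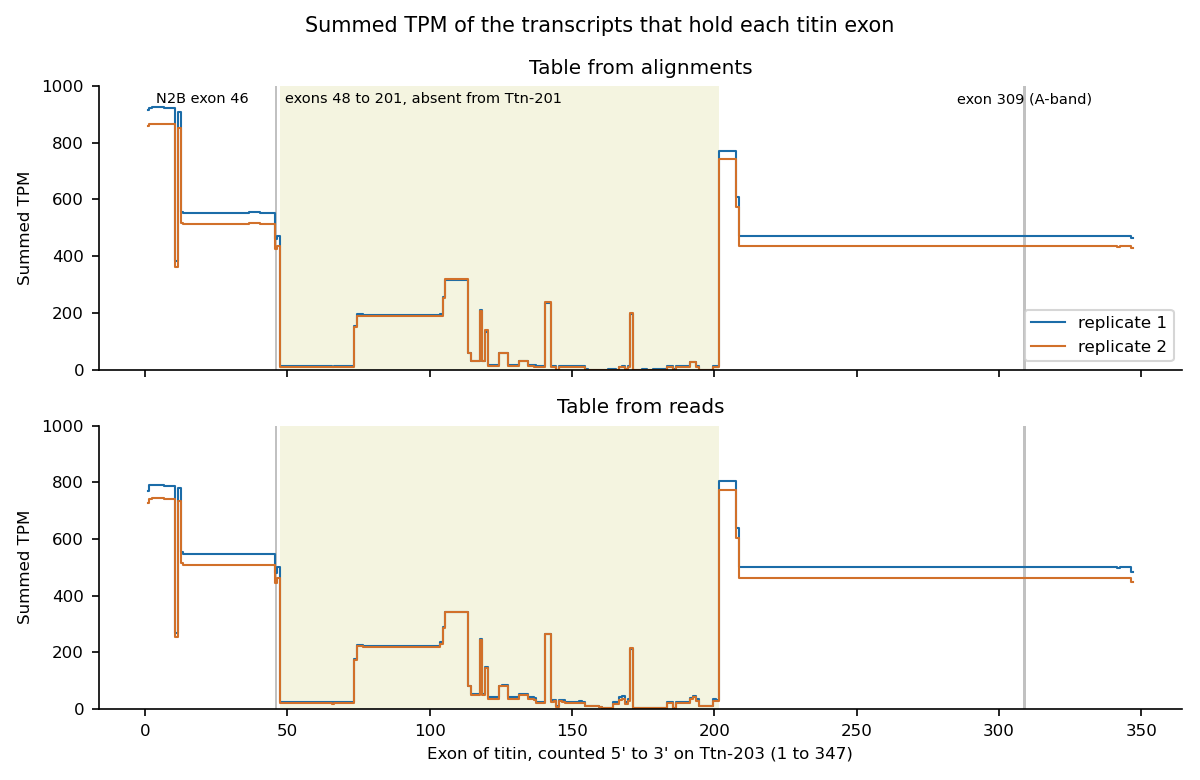
Summed TPM of the transcripts that hold each exon, along the 347 exons of Ttn-203, in replicate 1 and replicate 2, from alignments (top) and from reads (bottom). Exons 48 to 73 lie near 0, exons 75 to 113 lie between the low block and the A-band level, a few exons of the PEVK segment stand out, and exons 1 to 10 and 202 to 207 exceed exon 309.

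At the Z-disc end, exons 1 to 10 stood at 923.1 and 865.7 TPM from alignments, 197 ± 2.64% of exon 309, and at 159% from reads. Exon 11, one of 3 exons of 138 bases in a row, was held by transcripts with 382.6 and 362.4 TPM, while transcripts that pass from exon 10 to exon 12 had 539.6 and 502.8 TPM. The share with exon 11 was 41.7 ± 0.282% from alignments and 34.1 ± 0.233% from reads. Exons 11, 12 and 13 are between 57.2% and 59.4% identical in sequence and share no 31-base word. Most of the level with exon 11 came from Ttn-215. Transcripts with the upstream annotated start, position 76982547, had 374.4 and 355.3 TPM from alignments, against 539.7 and 502.8 TPM for those with the downstream start, 76982455; from reads the values were 244.7 and 234.8 TPM, against 525.2 and 490.5 TPM.

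The promoter of Ttn is shown because it ends at the upstream start, with the downstream start 92 bases further on. These are the 250 bases before the RefSeq start at 76982547 (RefSeq, GRCm38.p6, chr2:76982548-76982797, minus strand), with the motif TATAA in capitals.
Ttn promoter: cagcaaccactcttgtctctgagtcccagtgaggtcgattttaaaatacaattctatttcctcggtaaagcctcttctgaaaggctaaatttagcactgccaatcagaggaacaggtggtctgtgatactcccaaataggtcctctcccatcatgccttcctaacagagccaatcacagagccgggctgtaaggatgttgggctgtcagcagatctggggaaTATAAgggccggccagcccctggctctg
TATAA was found once, 28 bases before the start. Searched on both strands, it occurs in 22.8% of 32851 promoters of the same length, and on the gene's own strand in the last 50 bases before the start in 4.93%.

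Rbm20 was divided among its 3 transcripts, none of which held most of its TPM. Rbm20-203 (4892 bases, coding sequence 3597 bases), the full-length form, had 32.5 and 34.8 TPM from alignments and 38.1 and 40.2 TPM from reads, and was the highest in both mice and both tables. Rbm20-201 (4663 bases), annotated as subject to nonsense-mediated decay and with its start not found, had 29.5 and 29.3 TPM from alignments and 31.1 and 31.7 TPM from reads. Rbm20-202 (465 bases), a 5′ model that starts 116002 bases downstream in an exon of its own, had 21.6 and 24.5 TPM from alignments and 19.2 and 29.2 TPM from reads. Their shares of Rbm20 TPM were 39.1%, 34.2% and 26.7% in that order, and their shares of expected counts were 53.1 ± 1.21%, 44.2 ± 1.38% and 2.77 ± 0.170%.

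The model with the 46-base exon stood close to the full-length model. Rbm20-201 over Rbm20-203 was 0.908 in replicate 1 and 0.842 in replicate 2 from alignments, and 0.816 and 0.788 from reads. The inserted exon changes the reading frame, since 46 is not a multiple of 3, and in the annotation the coding sequence of Rbm20-201 ends in exon 12, 142 bases before its last junction. Rbm20-201 also has a last exon of 3001 bases, against 1301 bases in Rbm20-203. Of its distinct 31-base words, 38.5% (1783 of 4633) are in no other Rbm20 transcript. Most of these are words of the longer 3′ end, which has 1700 bases that Rbm20-203 lacks, and fewer are of the inserted exon. The level of Rbm20-201 is therefore not a measure of how often the 46-base exon is included. Whether the reads came from the inserted exon or from the 3′ end was not tested.

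**Figure D4:**
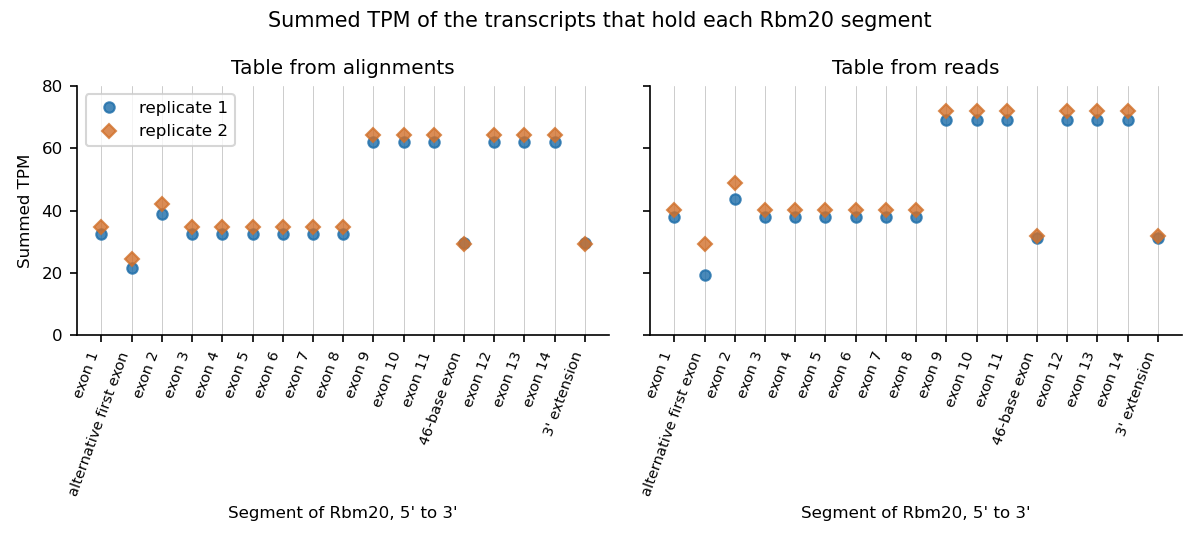
Summed TPM of the transcripts that hold each Rbm20 segment, 5′ to 3′, in replicate 1 and replicate 2, from alignments (left) and from reads (right). Exons 9 to 14 stand at 61.9 and 64.1 TPM from alignments, above exons 3 to 8 at 32.5 and 34.8 TPM. The step is the level of Rbm20-201, a model that begins at exon 9 with its start not found.

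By segment, exons 3 to 8 of Rbm20, which only Rbm20-203 holds, stood at 32.5 and 34.8 TPM. Exons 9 to 14, which include the arginine and serine rich stretch, stood at 61.9 and 64.1 TPM, and exon 2 at 38.9 and 42.1 TPM. The sum of the 4 A-band titin transcripts was 13.5 ± 1.46 times Rbm20-203 from alignments and 12.3 ± 1.15 times from reads.

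Other genes lie within the spans of both members. Gm13938, antisense within Ttn, and Gm16298, a processed pseudogene within Rbm20, were listed at 0 in both mice. Gm16299, antisense within Rbm20, had 0.16 and 0.09 TPM. Use of strand in counting is not given in the sources used here, so antisense reads may be shared with either member.

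Most listed partners of titin were detected. Of 86 genes in 8 lists of titin and RBM20 biology, Ttn and Rbm20 included, 83 reached 1 TPM in both mice. Over all 55536 genes, 21.5% did. The lists were chosen with earlier results of these data known, so the counts describe the lists and are not a test. Of 12 Z-disc partners all 12 did, led by Tcap, which caps the titin N-terminus, at 960.1 and 1201.7 TPM; the lowest was Myot at 27.6 and 29.3 TPM. Of 12 I-band partners 10 did. Cryab, a small heat shock protein that binds the spring, had 1204.4 and 1279.6 TPM, and Fhl2, which binds the N2B element, had 628.8 and 659.7 TPM. Ankrd1 and Ankrd23, ankyrin repeat proteins of the N2A element, had 218.2 and 210.8 TPM and 127.8 and 118.9 TPM. Those below 1 TPM in at least 1 mouse were Ankrd2, their skeletal muscle relative, at 0.03 and 0.16 TPM, and Capn3, a protease that binds N2A, at 1.17 and 0.58 TPM.

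All 11 genes in the list of M-band partners, which is not confined to proteins of the M-band, were detected. The highest in the list was Mybpc3, myosin-binding protein C, with 506.0 and 543.1 TPM. Myom1, a myomesin that crosslinks the M-band, had 381.8 and 394.7 TPM. Trim63, a ubiquitin ligase that binds titin near its kinase domain, had 82.1 and 80.3 TPM. Of 12 genes listed as giant sarcomere scaffolds, Ttn included, 11 were detected, and Myom3 had 0.56 TPM in both mice. Ttn was second in this list to Myh6, a myosin rather than a giant scaffold, which had 7293.8 and 8104.8 TPM. Nebulin, Neb, had 3.14 and 3.92 TPM, and its cardiac relative Nebl 114.4 and 128.4 TPM. All 7 genes for kinases and the phosphatase that act on the spring were detected, from Prkaca at 116.5 and 126.9 TPM to Prkg1 at 5.35 and 5.21 TPM.

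**Figure D5:**
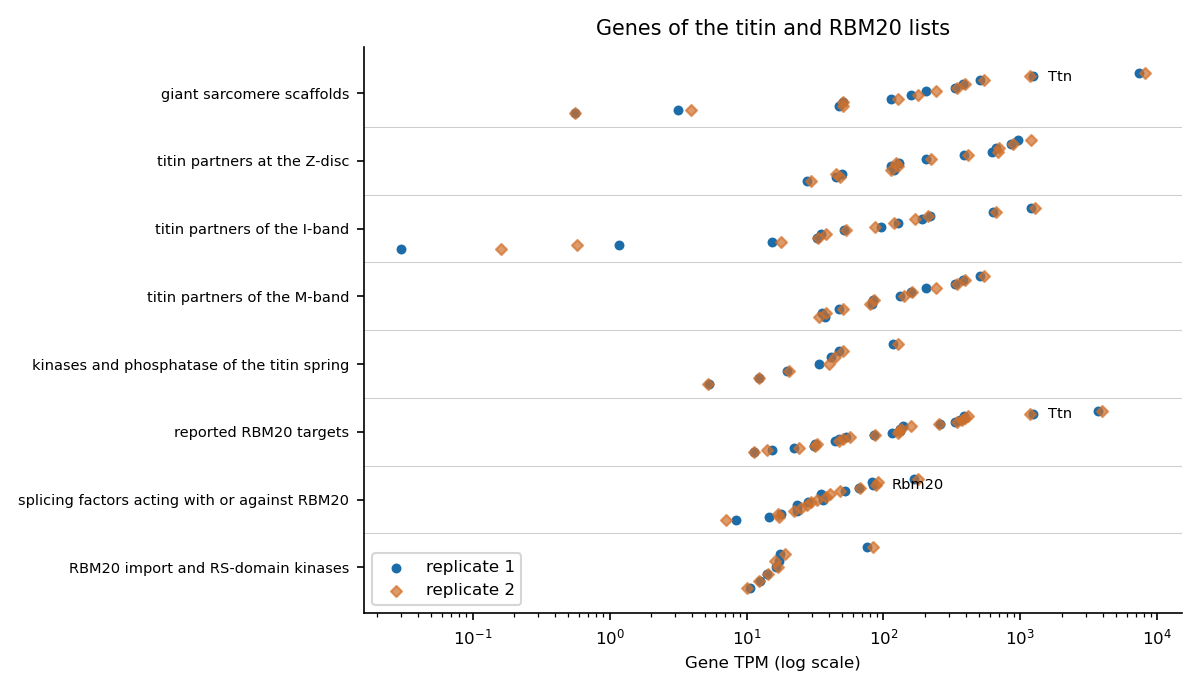
Gene TPM of each member of the 8 titin and RBM20 lists in replicate 1 (circles) and replicate 2 (diamonds), on a log axis. Ttn lies second in its lists, and Rbm20 lies near Mbnl1 and below Qk among the splicing factors.

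RBM20 shares its targets with other splicing factors. All 15 listed factors, Rbm20 itself included, were detected. Qk, at 167.2 and 179.7 TPM, was the highest and stood above Rbm20 in both mice. Mbnl1 had 81.9 and 90.9 TPM, which overlaps the values of Rbm20, and Rbm24, a muscle splicing factor, had 66.7 and 67.3 TPM. Ptbp1, a repressor that acts against RBM20 on titin exons in cell assays, had 17.8 and 16.8 TPM, and its neuronal relative Ptbp2 was lowest at 8.42 and 7.04 TPM. Of the 7 genes for import and for kinases of arginine and serine rich domains all were detected, with Tnpo3, the importin that carries RBM20 into the nucleus, at 16.4 and 16.9 TPM and the highest, Akt2, at 75.6 and 84.0 TPM.

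All 20 reported RBM20 targets were detected, from Tpm1 at 3700.5 and 3978.0 TPM to Pdlim3 at 11.3 and 11.3 TPM. In 11 of the 20, Ttn among them, the same transcript was highest in both mice and both tables, against the 67.1% of genes given above. Those with a stable highest transcript included Camk2d, a kinase of calcium handling (Camk2d-202, 46.9% of its TPM from alignments), Ryr2, the calcium release channel (Ryr2-201, 84.5%), and Ldb3, a Z-disc protein (Ldb3-203, 71.7%). In Cacna1c the highest transcript was Cacna1c-218 from alignments and Cacna1c-212 from reads, in both mice.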

How the data were processed

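The authors deposited 3 tables a library: gene levels, transcript levels from alignments, and transcript levels from the reads themselves, per the file descriptions (mm10, GENCODE M21). Which aligner and quantifiers were used is not given in the sources used here. Deposited units are FPKM, TPM, its posterior mean, expected counts and the percent of each gene's TPM on each transcript, per the file headers. The table from reads has estimated counts and TPM. Effective lengths are shorter in the table from reads, which bears on short models.

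Members and gene lists were chosen with earlier results of these data known. Named are all members, list members led by the highest and lowest, neighbours in level and overlapping genes. The values of 1 list member are not reported here. Detection was 1 TPM for genes and 0.1 TPM for transcripts in both mice. The 96 spike-ins were left out of totals, and 26249 other entries held 3 and 2 counts. Expected counts were rounded, and edgeR 4.0.16 (R 4.3.3) gave TMM factors and the common dispersion over 15170 genes. Folds after TMM scaling were checked on simulated counts without biological spread, and the dispersion was not checked. For the share of genes 1.5-fold apart between the mice, 0.5 was added to each count. Counting intervals are at 95% and cover counting error only. Tables were compared at 1 TPM in either, after adding 0.1. Scripts ran in Python 3.11.15. Alternatives were the table from reads, posterior mean TPM, FPKM, counts, other thresholds, DESeq2 1.42.0 size factors, total and spike-in scaling, and leaving out each mouse.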

Additional observations from a re-analysis of the deposited data

How the results depend on the processing

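No paired analysis was possible because the labels give 1 group. The table from reads gave 1130.1 TPM for Ttn, 94.8 TPM for Rbm20, a Ttn to Rbm20 ratio of 12.0 and a Ttn share of nuclear protein-coding TPM of 0.224%. Posterior mean TPM gave 956.2 and 68.0 for the 2 genes, and TPM over nuclear protein-coding genes 3100.1 and 220.5. In expected counts the ratio was 136 and the Ttn share 5.43%. The log2 ratio of Ttn between the mice was 0.16 after TMM, 0.15 without a filter, with DESeq2 size factors and in the table from reads, 0.11 by total count and -0.011 by spike-ins, which turned the direction. That of Rbm20 was -0.051 by total count and -0.18 by spike-ins; the cause was not tested.

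Class shares from reads were 40.6% for N2B, 2.09% for the long forms, 4.01% for novex-3, 20.4% for the 5′ end model, 31.6% for the I-band models and 1.39% for retained-intron and processed models. In expected counts they were 87.5%, 2.48%, 3.18%, 1.78%, 5.01% and 0.0792%. Without replicate 1 or replicate 2, Ttn lay between 1184.0 and 1235.6 TPM, Rbm20 between 83.6 and 88.6 TPM, and their ratio between 13.4 and 14.8. The class shares then lay between 35.9 and 37.3%, 0.771 and 0.923%, 6.39 and 6.54%, 29.4 and 29.5%, 24.6 and 26.3%, and 1.10 and 1.28%, in the same order. The highest transcript of each of the 2 genes was the same in the table from reads, the only alternative run for it. The counts of transcripts and of list members stayed within 1.5 times under every alternative run. In alternatives chosen after seeing the data, the table from reads moved 7 of 9 exon and transcript ratios by more than the SD. With 2 libraries of 1 group, the spread between hearts rests on a single difference and is imprecise.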
